A study of Mus musculus with 5 samples.

Results

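The antimicrobial genes of keratinocytes described here are 10 mouse genes, found by matching their symbols to the Ensembl gene IDs of the deposited count table. All 10 had a row among its 56691 genes. They are the beta-defensin genes Defb1, Defb3, Defb4 and Defb14, the calprotectin genes S100a8 and S100a9, and Slpi, Lcn2, Camp and Saa3. RNA was sequenced from back skin keratinocytes of mice aged 28 days. The 3 GFP libraries came from cells sorted for GFP, whose labels give an Lrig1 positive genotype and call them epidermal stem cells. The 2 bulk libraries came from the whole population without that sort, with a WT genotype and the label epidermal basal cells. The sources used here do not give what drives GFP, the sorting gates, the strain or any treatment. The labels do not say whether libraries of a group came from separate animals, so the tests measure the spread between these libraries, which may be technical.

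Skin epithelium makes small cationic peptides and secreted proteins that kill or starve microbes on its surface. Beta-defensins are short secreted peptides held together by disulfide bonds between cysteines, and most damage microbial membranes. Calprotectin, the pair of S100a8 and S100a9, binds zinc and manganese, lipocalin 2 (Lcn2) captures bacterial iron carriers, and the cathelicidin gene Camp encodes the precursor of a membrane-active peptide. Several of these genes are low in resting skin, can be induced in keratinocytes by IL-17, IL-22, IL-1 and microbial sensors, and are also made by neutrophils.

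The coding sequences of the 4 defensin genes are shown because this one family held both the highest and the lowest level of the 10 genes. They are from the first-numbered GENCODE M21 transcript of each gene (mouse chromosome 8 in each case), 5′ to 3′ from start to stop codon. Capitals mark the in-frame codons for cysteine.
Defb1: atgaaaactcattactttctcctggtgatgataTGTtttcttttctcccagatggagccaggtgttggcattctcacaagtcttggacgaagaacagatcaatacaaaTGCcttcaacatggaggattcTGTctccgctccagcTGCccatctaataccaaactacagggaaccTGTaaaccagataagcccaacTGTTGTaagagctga
Defb14: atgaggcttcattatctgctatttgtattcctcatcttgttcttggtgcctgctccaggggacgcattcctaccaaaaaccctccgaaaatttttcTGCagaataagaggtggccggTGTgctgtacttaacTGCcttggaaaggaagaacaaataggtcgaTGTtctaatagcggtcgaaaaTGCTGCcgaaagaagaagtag
Defb3: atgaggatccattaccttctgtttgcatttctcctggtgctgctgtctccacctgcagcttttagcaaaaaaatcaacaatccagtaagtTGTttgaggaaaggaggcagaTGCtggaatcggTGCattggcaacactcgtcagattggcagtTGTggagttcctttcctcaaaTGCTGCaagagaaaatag
Defb4: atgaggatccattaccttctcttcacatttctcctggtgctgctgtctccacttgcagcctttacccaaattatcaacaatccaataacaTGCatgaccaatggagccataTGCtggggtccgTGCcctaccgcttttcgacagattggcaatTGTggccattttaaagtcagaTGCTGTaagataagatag
All 4 sequences hold 6 cysteine codons after codon 20, the last 2 of them side by side. Defb1 has 1 more, at codon 12. Defb3 and Defb4 have the same length of 192 bases and match at 146 of them without gaps (76.0 percent). Whether any read matched both genes equally well was not tested. The sources used here do not say how such reads were counted.

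Total counts were 85307002, 71410484 and 89080100 in GFP 1, 2 and 3, against 56829330 and 105887450 in bulk 1 and 2, so 3 counts correspond to 0.0283 to 0.0528 CPM before TMM scaling. Levels below are counts scaled by the TMM-adjusted library size (CPM), and 7 of the 10 genes passed the filter on low counts. Defb3, Defb4 and Camp did not. Of the 7 tested genes, edgeR's quasi-likelihood test called 0 at an adjusted p under 0.05, against 5.28 percent of the 18583 genes tested (0.145 percent higher and 5.14 percent lower). Their unadjusted p was under 0.05 for 3 of the 7 (Defb14, S100a8 and Saa3). The share of all tested genes under that unadjusted p is not given here, nor for the lists below. The DESeq2 Wald test called 1 of the 7, Defb14, against 1499 genes over the whole table (188 higher and 1311 lower). GFP 1 and bulk 1 share a title number, as do GFP 2 and bulk 2. With that number as a replicate block, 4 of the 7 were called, Defb1, Defb14 and S100a8 higher and Saa3 lower, against 36.0 percent of all tested genes (16.4 percent higher and 19.7 percent lower). The labels do not say that a shared number means a shared animal. With the block and a trend on transcript length and GC content removed, the same 4 were called, against 29.0 percent of 18107 genes (12.6 percent higher and 16.5 percent lower). The block fit compares 2 pairs with 1 residual degree of freedom and took the spread almost wholly from the trend across genes. GFP 3 shares its title number with no bulk library, so it does not inform the group change in the block fits.

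**Figure D1:**
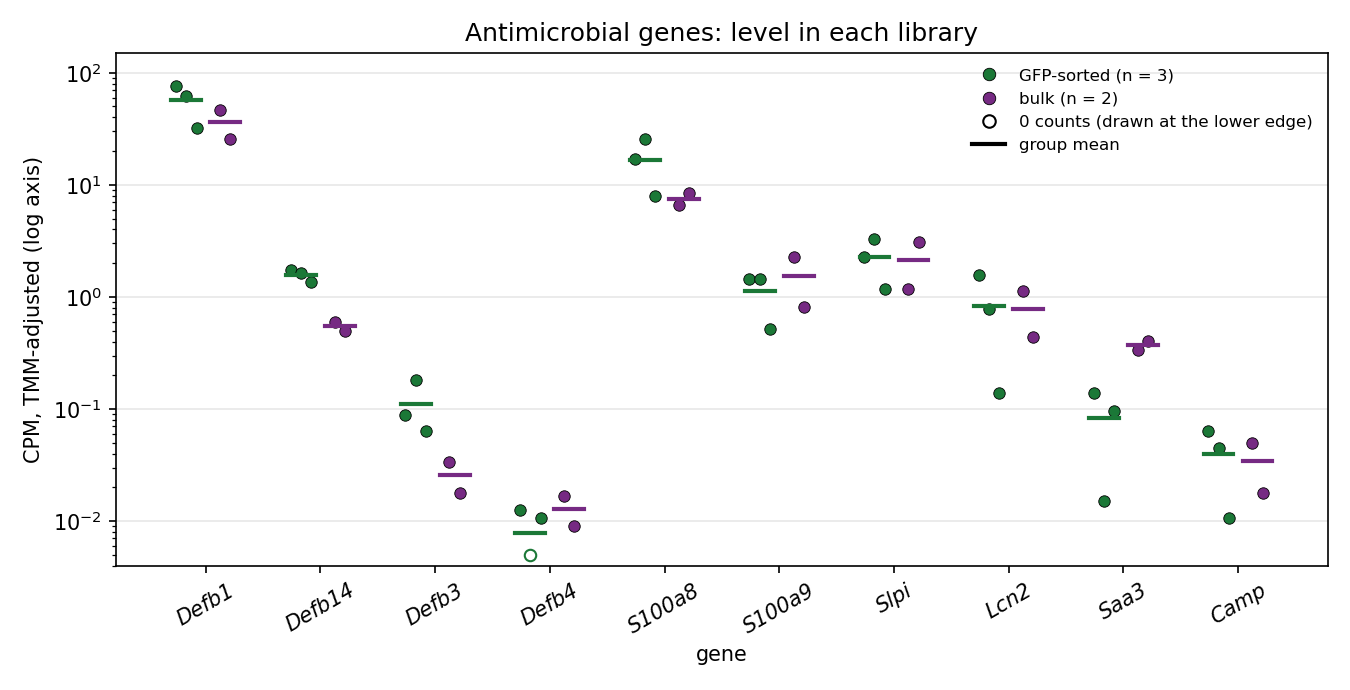
Level of each of the 10 antimicrobial genes in every library, in TMM-adjusted CPM (not corrected for length) on a log axis, GFP-sorted libraries (n = 3) left of bulk libraries (n = 2), with a bar at each group mean. Defb1 and S100a8 lie above the other 8 genes in all 5 libraries, and an open circle at the lower edge stands for 0 counts.

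The set was dominated by a pair of genes. Defb1 and S100a8 together held 92.7, 92.2 and 92.3 percent of the summed CPM of the 10 genes in GFP 1, 2 and 3, and 90.4 and 86.7 percent in bulk 1 and 2. Those shares are of reads and do not correct for length. Per kilobase of transcript Defb1 came first, with a level of 65.5 ± 26.1 CPM per kilobase in GFP libraries and 41.3 ± 16.6 in bulk libraries (SD, n = 3 and 2). S100a8 came next, with a level of 34.6 ± 17.9 CPM per kilobase in GFP libraries and 15.5 ± 2.62 in bulk libraries. Between these neighbours the ranges overlapped in GFP libraries (36.9 to 87.9 for Defb1, 16.5 to 52.3 for S100a8) and not in bulk libraries (29.6 to 53.0 and 13.7 to 17.4). Defb14 followed in GFP libraries at 7.75 ± 1.01 CPM per kilobase, against 2.68 ± 0.38 in bulk libraries, but its model holds only a coding length of 204 bases and no UTRs. Whether reads outside that stretch were counted is not known here, so its level is not strictly comparable with the others. Slpi, S100a9 and Lcn2 had group means between 0.852 and 3.02 CPM per kilobase, and their ranges overlapped in GFP libraries. In bulk libraries those of Slpi and S100a9 overlapped and Lcn2, at 0.480 to 1.22, lay below both. Saa3, Defb3, Camp and Defb4 had group means of 0.665 CPM per kilobase or less in both groups.

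Defb1, the constitutive beta-defensin of many epithelia, had the highest level per kilobase of the 10 genes in every library. It had 76.7, 62.6 and 32.1 CPM in GFP 1, 2 and 3, against 46.2 and 25.8 CPM in bulk 1 and 2. The groups overlapped, since GFP 3 lay below bulk 1. The log2 change was 0.67 ± 0.39 (SE) with a 95 percent interval from -0.23 to 1.57, and edgeR did not call it (adjusted p = 0.478). Within the title numbers GFP 1 was 1.66-fold above bulk 1 and GFP 2 was 2.43-fold above bulk 2, a direction shared by 38.5 percent of tested genes in both pairs. With the replicate block Defb1 was called (log2 change 1.004, edgeR adjusted p = 1.76e-10), and the call held when that trend was removed too (log2 change 0.78, edgeR adjusted p = 7.46e-05). With 1 library left out the log2 change ran from 0.30 without bulk replicate 2 to 1.15 without bulk replicate 1.

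Defb14, the mouse relative of human beta-defensin 3, was lower in level and steadier. It had 138, 109 and 126 counts in GFP 1, 2 and 3, against 36 and 55 in bulk 1 and 2. That is 1.75, 1.64 and 1.35 CPM in the GFP libraries, against 0.602 and 0.493 CPM in the bulk libraries. Every GFP library lay above both bulk libraries, as for 14.6 percent of all tested genes. The log2 change was 1.53 ± 0.37 (95 percent interval 0.68 to 2.39), a 2.89-fold higher level in GFP libraries, with an edgeR adjusted p of 0.0579. It was called without GFP replicate 3 (log2 change 1.63, edgeR adjusted p = 0.0371), with the title number as a block (1.64, adjusted p = 1.06e-06), and with the block and the trend removed (1.38, adjusted p = 9.74e-04). The trend was read at the model length of 204 bases, which holds no UTRs, so its correction for Defb14 is uncertain. Leaving out GFP 1, GFP 2, bulk 1 or bulk 2 gave edgeR adjusted p from 0.169 to 0.490, and log2 changes from 1.38 to 1.68.

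Defb3 and Defb4 encode inducible defensins, and both stayed near the floor. Defb3 had 7, 12 and 6 counts in GFP 1, 2 and 3, against 2 and 2 in bulk 1 and 2. Its exact Poisson intervals, which cover counting error only, reached from 0.0236 to 0.316 CPM over the GFP libraries and from 0.00217 to 0.121 CPM over the bulk libraries. The counts were higher in the GFP libraries, but the intervals overlapped. Defb3 was below the filter of the main test, and edgeR without the filter on low counts did not call it. Defb4 had 1, 0 and 1 counts in GFP libraries, against 1 and 1 in bulk libraries, and the exact Poisson interval of the 0 in GFP 2 reaches 0.0556 CPM. A difference in Defb4 was not detectable at this depth.

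S100a8 and S100a9 are neighbouring genes that are usually expressed together in myeloid cells, where their products form the calprotectin complex. Their start regions are shown because the genes, though neighbours, did not keep one ratio across these libraries. Each holds 300 bases, 5′ to 3′ on the gene's own strand, most of them before the start (RefSeq, GRCm38.p6). S100a8 is at chr3:90668821-90669120 on the plus strand and S100a9 at chr3:90695672-90695971 on the minus strand, a build earlier than the GRCm39 named for the counts. Capitals mark a match to the C/EBP motif.
S100a8: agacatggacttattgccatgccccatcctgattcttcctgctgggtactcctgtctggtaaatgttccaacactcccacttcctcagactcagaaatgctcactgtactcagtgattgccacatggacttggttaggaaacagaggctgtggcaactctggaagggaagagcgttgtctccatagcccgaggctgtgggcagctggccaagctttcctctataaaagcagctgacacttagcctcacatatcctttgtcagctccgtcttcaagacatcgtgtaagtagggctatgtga
S100a9: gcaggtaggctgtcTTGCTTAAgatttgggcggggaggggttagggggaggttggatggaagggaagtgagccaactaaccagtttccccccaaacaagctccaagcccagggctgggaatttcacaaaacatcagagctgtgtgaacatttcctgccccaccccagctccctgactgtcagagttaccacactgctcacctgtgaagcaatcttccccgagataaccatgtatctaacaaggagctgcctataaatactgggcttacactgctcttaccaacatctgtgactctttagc
Of the 10 genes, 7 had a start region in that table (Defb1, Defb4 and Defb14 did not). The C/EBP motif TTGCNNAA was searched on both strands and occurs in 10.8 percent of the 27025 start regions. It was found in 5 of the 7, those of Defb3, S100a9, Lcn2, Slpi and Saa3, and not in those of S100a8 and Camp. The motifs TTCNNNGAA (STAT), TGANTCA (AP-1) and that of NF-kappaB (GGG, any 2 bases, TTTCC), present in 8.47, 7.93 and 1.62 percent of start regions, were found in 0 of the 7. Matches of different motifs were allowed to overlap, and a match or its lack is a description of these letters only.

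S100a8 had 17.0, 25.4 and 8.01 CPM in GFP 1, 2 and 3, against 6.65 and 8.45 CPM in bulk 1 and 2. GFP 1 and 2 stood above both bulk libraries, and GFP 3 lay between them. The log2 change was 1.15 ± 0.44 (95 percent interval 0.13 to 2.17, unadjusted), and edgeR did not call it (adjusted p = 0.251). Without GFP replicate 2 it was 0.73. Without GFP replicate 3 it was called (1.48, edgeR adjusted p = 0.0203), as it was with the replicate block (1.47, adjusted p = 3.71e-17) and after taking out the trend as well (1.14, adjusted p = 2.88e-06). Within the title numbers it was 2.56-fold higher in GFP 1 than in bulk 1 and 3.01-fold higher in GFP 2 than in bulk 2. That direction was shared by 38.5 percent of tested genes in both pairs.

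S100a9 did not follow it. It had 1.43, 1.43 and 0.514 CPM in GFP 1, 2 and 3, against 2.27 and 0.816 CPM in bulk 1 and 2. The groups overlapped, and the log2 change was -0.45 ± 0.58 (95 percent interval -1.80 to 0.90, edgeR adjusted p = 0.762). The sign turned with the replicate block (0.05) and without bulk replicate 1 (0.46).

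S100a8 made up 92.2, 94.7 and 94.0 percent of the counts of the pair in GFP 1, 2 and 3, against 74.5 and 91.2 percent in bulk 1 and 2. The exact 95 percent intervals, for counting error only, ran from 90.7 to 95.7 percent over the GFP libraries, from 70.6 to 78.2 percent in bulk 1 and from 89.3 to 92.8 percent in bulk 2. Per transcript length S100a8 stood 12.5, 18.7 and 16.4 times as high as S100a9 in GFP 1, 2 and 3, against 3.08 and 10.9 times in bulk 1 and 2. The 3 GFP libraries lay above both bulk libraries, and bulk 1 stood apart from the other 4 libraries. The smallest GFP share and the bulk 2 share had overlapping intervals.

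**Figure D2:**
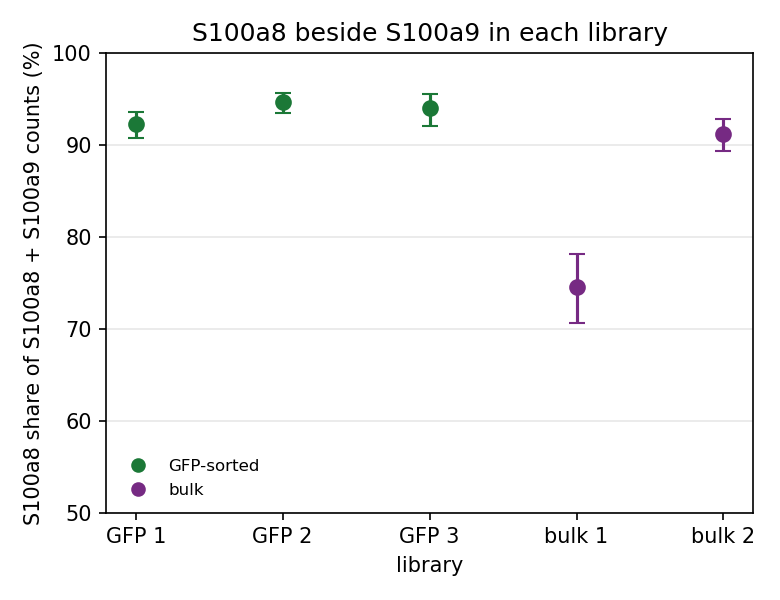
Share of S100a8 in the counts of S100a8 and S100a9 for each library (points, with exact 95 percent binomial bars; the axis runs from 50 to 100 percent). The GFP libraries lie between 92.2 and 94.7 percent, bulk 2 at 91.2 percent and bulk 1 at 74.5 percent.

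Neutrophils make both calprotectin genes, Lcn2 and Camp, so neutrophil markers were read beside them. Of 20 markers, Ly6g, which marks mouse neutrophils, and Ltf, a granule protein gene, had 0 counts in all 5 libraries. With Mpo, Elane, Ctsg and Ngp they are 6 of the listed granule and surface genes. These 6 summed to 3, 6 and 7 counts in GFP 1, 2 and 3, against 4 and 0 counts in bulk 1 and 2. The list holds others outside this sum. Prtn3 had 11, 5 and 15 counts in GFP 1, 2 and 3, against 5 and 9 in bulk 1 and 2. Mmp8 had 4, 1 and 1 counts, against 0 and 4, and Cd177 had 0 counts in the GFP libraries, against 2 and 2. In the same order, Retnlg had 0, 0 and 0 counts, against 5 and 1, and Csf3r had 3, 1 and 0, against 12 and 9. Cxcr2 had 14, 6 and 37 counts, against 26 and 26. Fpr1 had 3, 0 and 15 counts, against 2 and 0, and Chil3 had 0, 0 and 0, against 0 and 2. The whole list summed to 204 to 268 CPM in GFP libraries, against 119 and 146 CPM in bulk libraries, nearly all of it from Il1r2, Stfa3 and Ltb4r1. Without these, the other 17 markers summed to 0.784 to 1.35 CPM in GFP libraries, against 6.24 and 7.39 CPM in bulk libraries. Most of the bulk sums came from Mmp9, at 4.30 and 4.25 CPM in bulk 1 and 2. Itgam, also on the myeloid list, had 1.27 and 0.80 CPM there. Which cells these reads came from was not tested. Of 8 tested markers, Mmp9 and Stfa2 fell (log2 changes of -4.11 ± 0.54 and -4.18 ± 0.56, edgeR adjusted p = 0.00391 and 0.00432) and none rose by edgeR. DESeq2 called 3 lower and 2 higher, as did edgeR with the replicate block, against 19.7 and 16.4 percent of all tested genes under the block. The 2 higher were Stfa3, a stefin gene, and Il1r2, the decoy receptor for IL-1. For each of these, every GFP library lay above both bulk libraries, as for 14.6 percent of all tested genes. Their log2 changes were 1.55 ± 0.37 and 0.81 ± 0.23 (edgeR adjusted p = 0.0567 and 0.101, DESeq2 adjusted p = 0.00139 and 0.0229). Stfa3 and Ltb4r1, and the split of the sum, were picked after their values were seen.

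Slpi, an inhibitor of neutrophil elastase and other serine proteases that also has antimicrobial activity, varied as much within groups as between them. It had 2.28, 3.32 and 1.17 CPM in GFP 1, 2 and 3, against 1.17 and 3.07 CPM in bulk 1 and 2. GFP 3 and bulk 1 were low, and GFP 2 and bulk 2 were high. The log2 change was 0.08 ± 0.54 with a 95 percent interval from -1.17 to 1.32 (edgeR adjusted p = 0.963), and its sign turned in 4 alternatives.

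Lcn2 had the widest range among GFP libraries of the 7 tested genes. It had 125, 52 and 13 counts in GFP 1, 2 and 3, against 67 and 49 in bulk 1 and 2. That is 1.58, 0.784 and 0.139 CPM in GFP libraries, an 11.4-fold range, against 1.12 and 0.440 CPM in bulk libraries. Bulk lay inside the GFP range, and the log2 change was 0.11 ± 0.86 with an interval from -1.86 to 2.09 (edgeR adjusted p = 0.967). Lcn2 was 1.41-fold higher in GFP 1 than in bulk 1 and 1.78-fold higher in GFP 2 than in bulk 2. That direction was shared by 38.5 percent of tested genes in both pairs. The sign of the Lcn2 change turned in 4 alternatives.

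Camp had 5, 3 and 1 counts in GFP 1, 2 and 3, against 3 and 2 in bulk 1 and 2. It was below the filter of the main test, and edgeR without the filter on low counts did not call it. Its Poisson intervals ended at 0.148 CPM or below in every library. A difference between the groups was not detectable at this depth.

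Saa3, an acute-phase serum amyloid gene made by epithelia and macrophages, ran in the other direction. It had 11, 1 and 9 counts in GFP 1, 2 and 3, against 20 and 45 in bulk 1 and 2. That is 0.139, 0.0151 and 0.0964 CPM in GFP libraries, against 0.334 and 0.404 CPM in bulk libraries. All GFP libraries lay below both bulk libraries, as for 18.5 percent of all tested genes, and both title numbers gave a lower GFP value, as for 38.8 percent. The log2 change was -2.10 ± 0.71 (95 percent interval -3.73 to -0.46), not called by edgeR (adjusted p = 0.185). With the replicate block it was called (-2.29, adjusted p = 0.00153), also with the block and the trend removed (-2.45, adjusted p = 0.00963). Myeloid markers moved beside it. Of 14, 11 fell and none rose, with list sums of 21.9 to 40.9 CPM in GFP libraries, against 251 and 253 CPM in bulk libraries. Mrc1, a macrophage gene, had 0 counts in the 3 GFP libraries. The part of these cells in the Saa3 values was not tested, and in bulk RNA fewer cells of a type and less RNA per cell cannot be told apart.

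**Figure D3:**
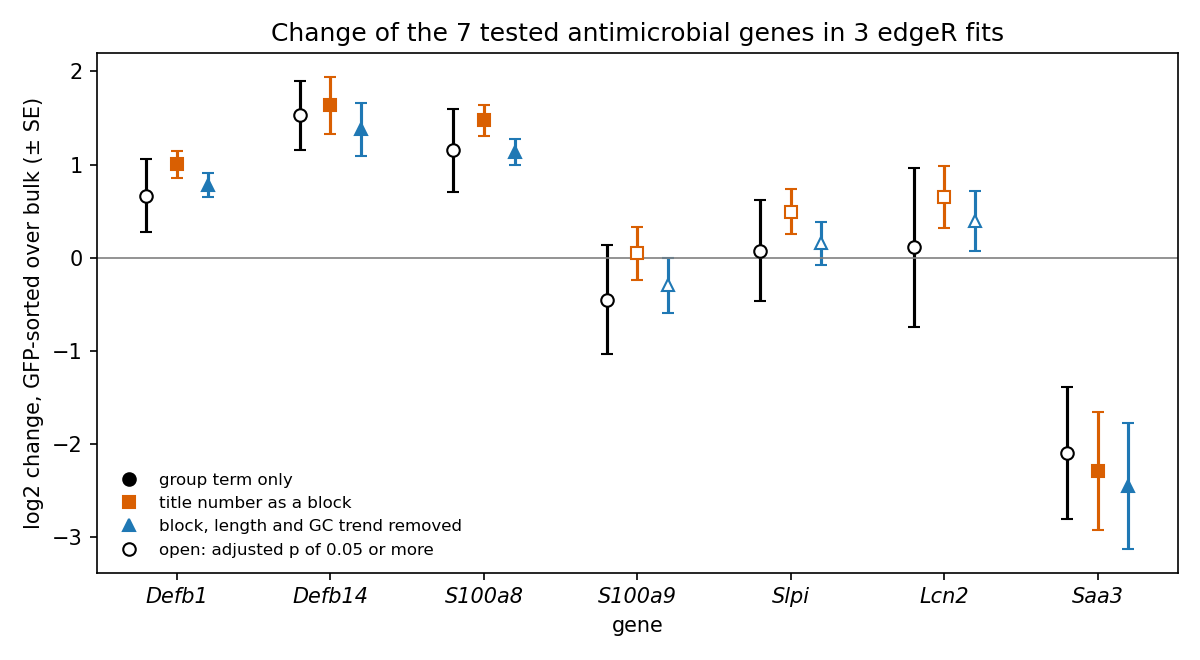
Log2 change of the 7 tested antimicrobial genes, GFP-sorted over bulk, with SE bars, in edgeR fits with the group alone (circles), with the title number as a block (squares) and with the block after removing the length and GC trend (triangles). Filled symbols have an adjusted p under 0.05. None is filled in the first fit, and Defb1, Defb14, S100a8 and Saa3 are filled in the other two.

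Library and transcript length moved with these values. Of the 10 genes, 8 had their lowest GFP value in GFP 3, as did 38.9 percent of all tested genes and 49.1 percent of those with a longest transcript of up to 1000 bases. The 10 include the 3 genes below the filter on low counts. Most of the set has short transcripts. The 2293 tested genes of that length had a median log2 change of 0.27, against 0.05 for all tested genes. For each library the median deviation from the gene's own mean over the libraries was taken, less that of all genes. For these short genes it was 0.20, 0.08 and -0.10 on the log2 scale in GFP 1, 2 and 3. In bulk 1 and 2 it was -0.04 and -0.16. Taking out that trend without a block left log2 changes of 0.46 for Defb1, 1.28 for Defb14 and 0.82 for S100a8, none of them called (edgeR adjusted p = 0.612, 0.0778 and 0.425). For Defb14 that correction rests on a model length without UTRs. The part of length in the uncorrected values beyond these numbers was not tested.

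Among 8961 protein-coding genes, the profiles over the 5 libraries most like that of Defb1 were those of Rpl31 and Rpl39, ribosomal protein genes, and Cstb, which encodes an inhibitor of cysteine cathepsins. Their root mean square distances from Defb1 were 0.04, 0.07 and 0.07 on the log2 scale, each profile centred on its own mean. Rpl31, the nearest, had 888, 697 and 367 CPM in GFP 1, 2 and 3, against 536 and 315 CPM in bulk 1 and 2. For S100a8 the nearest were Gpha2, Efhd2 and Wdr53, at distances of 0.20, 0.21 and 0.22. With 5 libraries such likeness is a description, and all these profiles share the libraries and their depth. Taking out the length and GC trend moved the log2 change of Rpl39 to 0.33, against 0.62 before, and that of Efhd2 to 0.70, against 0.73 before.

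Beyond the set, 41 other antimicrobial and acute-phase genes were listed. Of 27 tested, 4 fell and none rose by edgeR, while DESeq2 called 8 lower and 2 higher. With the replicate block 11 were called higher and 9 lower, against 16.4 and 19.7 percent of all tested genes. With the trend removed too, 10 and 9 were called, against 12.6 and 16.5 percent. The median log2 change of the 27 was 0.30, against 0.05 for all tested genes. Wfdc5 and Wfdc21, which encode secreted proteins with the same type of domain as Slpi, were at 1.31 ± 0.31 and 0.279 ± 0.20 CPM in GFP libraries, against 19.6 ± 6.72 and 12.4 ± 9.92 CPM in bulk libraries (SD, n = 3 and 2). Their log2 changes were -3.90 ± 0.32 and -5.47 ± 0.69 (edgeR adjusted p = 4.70e-04 and 0.00324). The lysozyme gene Lyz2 and the haptoglobin gene Hp fell too, with log2 changes of -4.57 and -3.25 (adjusted p = 0.0233 and 0.0270 by edgeR). Leaving out 1 library ended the call of Lyz2 for GFP 2, bulk 1 or bulk 2 (edgeR adjusted p = 0.0550, 0.135 and 0.0571) and of Hp for GFP 1, GFP 2 or bulk 1 (0.0547, 0.0593 and 0.269). Lyz2 is also a myeloid marker, and Wfdc5 and Wfdc21 moved beside suprabasal markers, of which 9 of 16 tested fell and none rose, with sums of 9989 to 13500 CPM in GFP libraries, against 18830 and 24286 CPM in bulk libraries. Their part in the result was not tested. Cst6, which encodes an epidermal cysteine protease inhibitor, had the highest mean CPM of the list in both groups, though Cxcl14 was above it in GFP 3. Cst6 had 1688, 956 and 452 CPM in GFP 1, 2 and 3, against 888 and 657 CPM in bulk 1 and 2. Its log2 change of 0.42 was not called (edgeR adjusted p = 0.735) and was -0.14 without GFP replicate 1.

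Defb6, a further beta-defensin gene, was chosen with its values in view. It had 609, 401 and 211 CPM in GFP 1, 2 and 3, against 249 and 123 CPM in bulk 1 and 2. The groups overlapped, since GFP 3 lay below bulk 1, and the log2 change of 1.13 ± 0.47 was not called (edgeR adjusted p = 0.294). It was called when the title number was a replicate block (1.49, adjusted p = 1.51e-21) and with the block and the trend removed (1.18, adjusted p = 6.32e-07).

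Of 14 other S100 genes, 11 were tested, 1 fell and none rose by edgeR, while DESeq2 called 1 lower and 1 higher. The replicate block gave 6 higher and 1 lower, against 16.4 and 19.7 percent of all tested genes. With the trend removed too, 4 and 2 were called, against 12.6 and 16.5 percent. The median log2 change of the 11 was 0.37. S100a3, a calcium-binding protein gene of the hair cuticle, had a log2 change of -4.96 ± 0.37 by edgeR (adjusted p = 3.34e-04) and fell to 1.80 ± 0.81 CPM in GFP libraries, against 55.9 ± 3.75 CPM in bulk libraries. All 13 tested markers of hair matrix and sheath fell beside it, with list sums of 53.2 to 61.5 CPM in GFP libraries, against 1550 and 2925 CPM in bulk libraries. S100a14 had the highest mean CPM in both groups, at 940 ± 236 CPM in GFP libraries and 661 ± 68.5 CPM in bulk libraries, and was not called (edgeR adjusted p = 0.450). S100a10, the partner of annexin A2, and S100a7a, the mouse gene of the psoriasin group, were chosen with their values in view. S100a10 had 1127, 836 and 695 CPM in GFP 1, 2 and 3, against 444 and 301 CPM in bulk 1 and 2. For S100a10 every GFP library lay above both bulk libraries, as for 14.6 percent of all tested genes. Its log2 change was 1.25 ± 0.31 (edgeR adjusted p = 0.0603). S100a10 was called higher by DESeq2 (adjusted p = 0.00100), without GFP replicate 3 (edgeR adjusted p = 0.0283), with the trend removed (0.0284) and with the replicate block (1.82e-17). S100a7a was at 0.658 ± 0.08 CPM in GFP libraries and 1.74 ± 0.12 CPM in bulk libraries, and its log2 change was -1.40 ± 0.34 (edgeR adjusted p = 0.0599).

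Of 24 receptors and sensors that act upstream of these genes in keratinocytes, 22 were tested, 2 fell and none rose by edgeR, with a median log2 change of 0.13. Under the replicate block 5 were called higher and 3 lower, against 16.4 and 19.7 percent of all tested genes. With the trend removed too, 6 and 3 were called, against 12.6 and 16.5 percent. Il22ra1, the receptor subunit for IL-22, was at 7.51 ± 1.10 CPM in GFP libraries and 16.1 ± 1.67 CPM in bulk libraries, a log2 change of -1.10 ± 0.22 (edgeR adjusted p = 0.0290). It was not called when GFP 1, GFP 2, bulk 1 or bulk 2 was left out (edgeR adjusted p from 0.0597 to 0.212). Tnfrsf1b, a TNF receptor gene, fell by 3.60 ± 0.38 (edgeR adjusted p = 0.00145). Myeloid and T cell markers fell too, and the part of such cells in this change was not tested. The other TNF receptor gene listed, Tnfrsf1a, was not called (log2 change 0.22, edgeR adjusted p = 0.657). Among the uncalled, the shared IL-17 receptor subunit gene Il17ra had 54.1, 71.3 and 60.9 CPM in GFP 1, 2 and 3, against 50.6 and 63.3 CPM in bulk 1 and 2, and overlapped between groups. Tlr4, the sensor of bacterial lipopolysaccharide, was below the filter.

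None of 23 tested adaptors and transcription factors was called by edgeR, nor by DESeq2 (0), while 5 had an unadjusted edgeR p under 0.05. Their median log2 change was 0.33. With the replicate block 12 were called higher and 2 lower, against 16.4 and 19.7 percent of all tested genes. With the trend removed as well, 13 and 0 were called, against 12.6 and 16.5 percent. The NF-kappaB inhibitor gene Nfkbia had the highest mean CPM in GFP libraries, though Tnfaip3 was above it in GFP 3. Nfkbia had 1690, 3595 and 1388 CPM in GFP 1, 2 and 3, against 1186 and 2096 CPM in bulk 1 and 2. Its log2 change of 0.44 was not called (edgeR adjusted p = 0.702) and was -0.09 without GFP replicate 2. Cebpd, a C/EBP factor gene of the acute-phase response, had 97.4, 86.4 and 57.1 CPM in GFP 1, 2 and 3, against 54.6 and 33.7 CPM in bulk 1 and 2. For Cebpd every GFP library lay above both bulk libraries, as for 14.6 percent of all tested genes. Its log2 change was 0.86 ± 0.30 (edgeR adjusted p = 0.195), and it was chosen with its values in view.

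**Figure D4:**
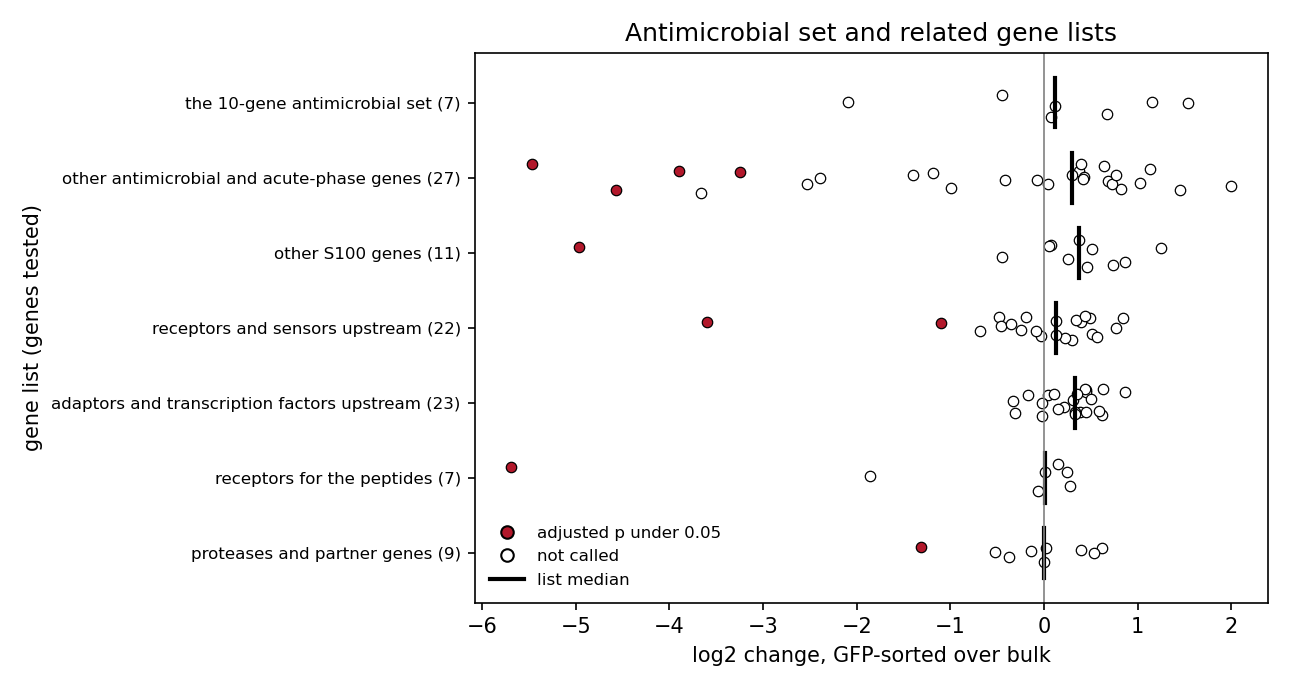
Log2 change, GFP-sorted over bulk, of each tested gene of the antimicrobial set and of 6 related lists, with the number tested in brackets, a bar at each list median and filled points for an edgeR adjusted p under 0.05. The filled points are all below 0, and no tested gene of the antimicrobial set or of the adaptors is filled.

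Of 11 genes for cell surface proteins reported to bind these peptides, 7 were tested and 1 fell. With the replicate block 1 was called higher and 2 lower, against 16.4 and 19.7 percent of all tested genes. Ccr2, a chemokine receptor of monocytes, had 2, 0 and 0 counts in GFP libraries, against 23 and 70 in bulk libraries (edgeR adjusted p = 0.0108, and 0.116 without bulk replicate 2). Ccr6, the receptor to which beta-defensins bind on T cells and dendritic cells, had 0 counts in the GFP libraries, against 3 and 19 in the bulk libraries, and was below the filter. Of 14 proteases and partners 9 were tested and 1 fell. The replicate block called 2 higher and 2 lower, against the same shares of all tested genes. Klk5, a kallikrein that cleaves the cathelicidin precursor in human skin, was at 53.5 ± 13.9 CPM in GFP libraries and 132.6 ± 14.9 CPM in bulk libraries, a log2 change of -1.31 ± 0.25 (edgeR adjusted p = 0.0218). It was not called without bulk replicate 1 or bulk replicate 2 (adjusted p = 0.141 and 0.0797). Elane and Ctsg, neutrophil proteases that Slpi inhibits, were below the filter.

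The sorted cells carried the label's gene Lrig1 at 210, 226 and 213 CPM, against 163 and 155 CPM in bulk libraries. The log2 change of 0.44 was not called (edgeR adjusted p = 0.292). Every GFP library lay above both bulk libraries, as for 14.6 percent of all tested genes. With the replicate block Lrig1 was called higher (log2 change 0.45, edgeR adjusted p = 0.00676), as were 16.4 percent of all tested genes. The change does not by itself check the labels and is no finding. Of the 12 markers of the upper follicle listed, which include Lrig1, Fst rose (log2 change 0.96 ± 0.20, edgeR adjusted p = 0.0315), not without GFP 1, GFP 2, bulk 1 or bulk 2 (0.0564 to 0.322). Among 10 stress keratinocyte markers Krt16 rose (1.19 ± 0.25, edgeR adjusted p = 0.0322) and Tgm1 and Sprr2h fell. Krt16 was not called without GFP 1, GFP 2, bulk 1 or bulk 2 (0.0633 to 0.282), nor Sprr2h without bulk 1 or bulk 2 (0.165 and 0.0979). Of 12 basal markers edgeR called 0, DESeq2 called 2 higher, and 4 had an unadjusted edgeR p under 0.05. With the replicate block 7 were called higher and 1 lower, against 16.4 and 19.7 percent of all tested genes. With the trend removed too, 10 and 0 were called, against 12.6 and 16.5 percent. The 12 basal markers summed to 36709 to 44920 CPM in GFP libraries, against 23986 and 27398 CPM in bulk libraries. Of 9 T cell and 15 sebaceous markers tested, 9 and 4 fell and none rose by edgeR. Under the replicate block 11 of the 12 upper follicle markers were called higher, 6 of the 10 stress markers higher and 2 lower, and 9 of the 15 sebaceous markers lower and 1 higher. Bulk, though labelled basal, held the larger suprabasal sums given above.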

How the data were processed

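RNA sequencing counts of 3 GFP-sorted and 2 bulk libraries were analysed. Per the submitters' processing notes the authors used STAR and the genome build GRCm39. Their versions, the counter, the annotation, strandedness and any filter: not given in the sources used here. Deposited values are whole-number counts per gene and library. Symbols came from GENCODE M21 (GRCm38) by gene ID, for 52073 of 56691 IDs.

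Counts were tested with edgeR 4.0.16 in R 4.3.3: filterByExpr (minimum count 10, total 15), TMM scaling, group as the only term, a two-sided quasi-likelihood test, adjusted by Benjamini-Hochberg over 18583 genes, threshold 0.05. SE is the log2 change over the root of F. Alternatives were DESeq2 1.42.0, other scalings and filters, a loess trend (span 0.3, robust) on longest transcript length and GC content (18107 genes), the title number as replicate block, and each library left out in turn. Only the edgeR fit with the group alone was run on simulated counts, of independent libraries. That run does not check the block or trend fits.

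Title numbers were treated as animals, which no label states, and the labels give paired bulk and GFP libraries different genotypes. Deviations of same-numbered libraries from their group means correlated across genes (Pearson r = 0.474, genes not being independent). The median total degrees of freedom were 7.99 without the block and 18583 with it.

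The genes and the 15 lists were chosen with earlier results of these data known. Named were all 10 genes, the 3 nearest profiles of members averaging at least 5 CPM (pseudocount 0.1 CPM, candidates with log2 CPM of at least 3), called genes of each list (up to 6, or 3 for markers) and its gene of highest CPM. Outside that rule, Il17ra, Tlr4, Ccr6, Ly6g, Ltf, Mpo, Ngp, Elane, Ctsg, Prtn3, Mmp8, Cd177, Itgam, Mrc1, Cxcl14 and Tnfaip3 were named for their role or rank, with values in view. Retnlg, Csf3r, Cxcr2, Fpr1 and Chil3 were named to complete the neutrophil list, also with values in view. Marker lists are given mainly as counts and sums.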

Additional observations from a re-analysis of the deposited data

How the results depend on the processing

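Over all genes 982 were called by edgeR, 1499 by DESeq2's Wald test, 1918 without the filter, 6692 with the replicate block and 5259 when the trend was removed as well as the replicate block added. Leaving out 1 library gave 480 to 1205. Of the antimicrobial genes 0 were called by edgeR, 1 with the DESeq2 Wald test, 3 with no filter (Defb14, S100a8 and Saa3), 4 with the replicate block, 4 with the replicate block and the trend removed, and 0 to 2 with 1 library left out, the 2 being Defb14 and S100a8 without GFP replicate 3. The fits without bulk replicate 1 or bulk replicate 2 leave 1 bulk library, assumed to vary like the GFP libraries.

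Signs turned for 3 of these genes, all within their SE in the fit without a block. With library size alone Lcn2 and Slpi were at -0.059 and -0.071, and with the trend removed at -0.13 and -0.20. S100a9 was at 0.047 with the replicate block. With 1 library left out, Lcn2 ran from -0.76 to 0.93, Slpi from -0.44 to 0.93, and S100a9 from -1.03 to 0.46. Of the genes outside the set, Cst6 was at -0.14 without GFP replicate 1 (highest 0.77) and Nfkbia at -0.092 without GFP replicate 2 (highest 0.89). The cause was not tested. Defb1, Defb14, S100a8 and Saa3 kept their direction in each alternative run. Saa3 had no value with a minimum of 1 CPM, which it did not reach. At 0 to 12 counts, Defb3, Defb4 and Camp were below the filter of the main test, and edgeR without that filter called none of them.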
